A study of Homo sapiens with 4 samples.

Results

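The genes described here encode 10 core proteins of the U2 and U5 parts of the spliceosome: SF3B1, SF3A1, SF3B2, SF3B3, U2AF1, U2AF2, SF1, PRPF8, SNRNP200 and EFTUD2. They were picked by gene identifier under a rule that uses no measured value, although earlier results of these data were known when they were proposed. All 10 had peaks among the 17764 genes in the lists. Together they held 652 listed peaks, none of them listed under a further gene. The files give identifiers and no names, so the pairing of names with identifiers came with the choice of genes. The chromosome of the peaks was that of the named gene in the RefSeq table for 10 of 10.

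Contacts of FLAG-ZFR with RNA were located by eCLIP, which sequences the RNA fragments that ultraviolet light (400 mJ/cm2) has joined to an immunoprecipitated protein. Flp-In T-REx-293 is a derivative of the human embryonic kidney line HEK-293 in which a transgene sits at a fixed integration site. All 4 libraries, 2 eCLIP and 2 size-matched input, came from polyclonal cells carrying FLAG-ZFR at the FRT site. Doxycycline at 1 µg/mL was given over 48 to 72 h, so a tagged copy added to the cells' own ZFR was read in every library. The input was RNA of the same gel region taken without the immunoprecipitation. It was the only control, and cells without the tag were not analysed here. The labels name no separate cultures, and the spread behind every p-value here may be technical.

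ZFR is a zinc finger protein that binds RNA and takes part in alternative splicing. The 10 genes make proteins that act in sequence on an intron. SF1 and the U2AF1-U2AF2 pair first mark the branch point and the 3′ splice site, the U2 snRNP with its SF3a and SF3b proteins then replaces SF1 at the branch point, and the U5 snRNP proteins PRPF8, SNRNP200 and EFTUD2 arrive with the tri-snRNP to build and activate the catalytic centre. What is measured here is ZFR on the transcripts of these genes and not contact with their proteins. The lists do not separate exons from introns here, because no annotation or sequence of the hg19 build was used.

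The lists differed widely in length, with 479308 and 41904 peaks for the eCLIP replicates and 63068 and 11204 for the inputs. The reads in peaks ranged from 102084 to 3075352, and the depth of the libraries is unknown. The 10 genes held 418 and 83 peaks in the eCLIP lists and 117 and 34 in the inputs. Levels are therefore given as shares: peaks of the gene per 10000 peaks of the library, and reads in those peaks per 10000 reads in all peaks. The reads of a peak are the whole number that ends its deposited name, a reading the files do not state. Coordinates are hg19, counted from 1, and distances run from the 5′ end of the span of a gene's peaks over the 4 libraries. That span is fixed mostly by the long list of eCLIP replicate 1.

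By share of peaks, the log2 difference of eCLIP minus input was below 0 in 9 of the 10 genes, beside 3596 of all 8914 genes tested, and none of the 10 passed the test. By share of reads the picture split. U2AF1 lay higher in both eCLIP libraries than in both inputs, PRPF8 and SF3B1 lay lower in both, and the other 7 overlapped. In limma with Benjamini-Hochberg adjustment over 8914 genes, 0 of 10 members were called on the share of peaks, where 0% of all genes were called. At an unadjusted p under 0.05 the fit gave 1 member, PRPF8, and 174 of all genes. The median log2 difference of eCLIP minus input was -0.66 over the members and 0.16 over all genes tested. On the share of reads the medians were -0.15 and 0.16, with 0 members called. At an unadjusted p under 0.05 the fit on reads gave 0 members and 338 of all genes. Over all genes, the fit on the share of peaks called 695 higher without eCLIP replicate 2, 5 lower without input 1 and 1 lower without input 2. None of the 10 was among them. With 2 libraries a group, 0.33 is the smallest two-sided p of an exact permutation test.

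**Figure D1:**
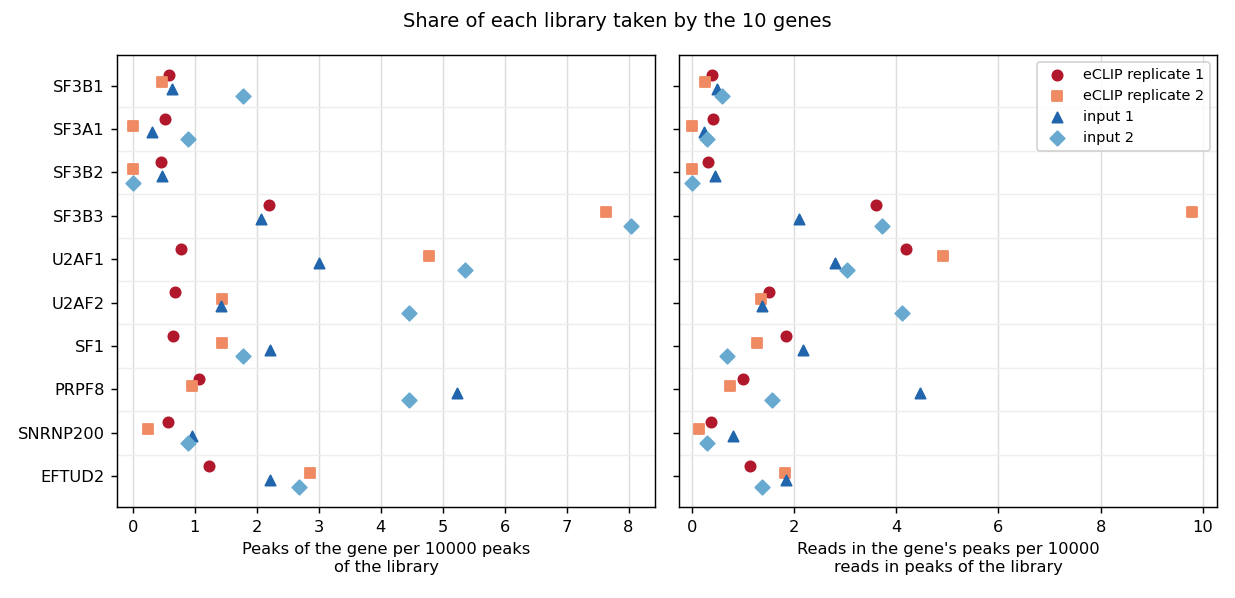
Share of each library's peaks (left, per 10000 peaks) and of its reads in peaks (right, per 10000 reads) taken by each of the 10 genes, 1 point per library. U2AF1 reads lie at 4.19 and 4.92 in eCLIP (red circle, orange square) against 2.81 and 3.04 in the inputs (blue triangle and diamond), while PRPF8 lies lower in both eCLIP libraries in both panels.

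Groups of libraries that did not overlap were counted for all genes as well. Both eCLIP shares of peaks lay above both input shares in 0 of 10 members and in 21.1% of all genes tested. They lay below both in 4 of 10 members, SF3B1, SF1, PRPF8 and SNRNP200, and in 10.2% of all genes. By reads, 1 member (U2AF1) was above both inputs, beside 25.0% of all genes, and 2 (SF3B1 and PRPF8) were below both, beside 9.08%. With touching peaks merged, U2AF2 took the place of SF3B1 among the 4. By reads with each run of touching peaks counted once, the members below both inputs were 3: PRPF8, U2AF2 (1.597 and 1.434 against 1.634 and 5.518 per 10000) and SNRNP200. SF3B1 was then no longer below (0.403 and 0.278 against 0.316 and 0.788). The number below by peaks was 7 without eCLIP replicate 2 and 8 without input 1. Shares over all genes are not given for the merged settings or with a library left out. With fewer libraries the order is easier to meet, so these numbers are not read as an excess. No test was made of these counts, and 1 member above beside 25.0% is no excess.

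U2AF1, which reads the AG at the 3′ splice site, had the strongest peak of the 10 genes by reads in eCLIP replicate 1, with 75. In eCLIP replicate 2 its strongest peak had 20 reads, below the 37 of SF3B3. The gene (ENSG00000160201.7) has its peaks at chr21:44513075-44527335, minus strand. It held 37 and 20 peaks in eCLIP replicates 1 and 2, and 19 and 6 in inputs 1 and 2. Those peaks held 1290 and 113 reads in eCLIP and 70 and 31 in input, or 4.19 and 4.92 against 2.81 and 3.04 per 10000 reads. Both eCLIP read shares were above both input shares, with a log2 difference of 0.56 (SE 0.73), which did not pass in limma (adjusted p = 0.96). The direction by reads held with each run of touching peaks counted once, at 4.16 and 5.23 against 2.53 and 3.68 per 10000.

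By number of peaks U2AF1 pointed the other way. It took 0.772 and 4.77 per 10000 peaks in eCLIP against 3.01 and 5.36 in input, a log2 difference of -0.81 (SE 0.85; limma, adjusted p = 0.995). The groups overlapped, with eCLIP replicate 1 far below the other 3 libraries. In eCLIP replicate 1 the smallest of its 37 peaks had 12 reads and the largest 75, while the smallest had 3 in each of the other libraries. Its 34.9 reads per peak there were at the 99.2nd percentile of the genes tested, whose median was 4.53. Whether weaker peaks of this gene went unlisted in that library was not tested. The difference turned to 1.10 with peaks at a p-value of at most 0.001 and to 0.22 without eCLIP replicate 1. It turned to 1.87 in lists of equal length, each cut to the 11204 peaks with the lowest p-values.

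Toward the 3′ end, the U2AF1 peaks of the inputs ran further than those of the eCLIP libraries. In eCLIP replicate 1 the peaks ran from 0.0195 to 11.3 kb and in eCLIP replicate 2 from 3.16 to 11.0 kb. In the inputs they ran to 14.0 and 14.2 kb. The last 20% of the span held 0 of 37 and 0 of 20 eCLIP peaks, against 9 of 19 in input 1 and 3 of 6 in input 2. For this gene the 3′ end of the span is set by the input 2 peak 44513075-44513121. Input 2 thus reaches it by definition, and input 1 does not. Input peaks at 44513326-44513336 (input 1, 3 reads) and 44513324-44513340 (input 2, 7 reads) overlapped each other in that part, and no eCLIP peak met them.

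The stretch of U2AF1 with most reads in eCLIP replicate 1 also held most of the gene's reads in eCLIP replicate 2. The 1000 bases with most reads in eCLIP replicate 1, at 44520762-44521761, held 10 of its peaks and 514 of its 1290 reads. The values that follow are from libraries that did not choose the stretch. In eCLIP replicate 2 it held 61 of 113 reads, or 54.0% (Wilson 95% interval 44.8 to 62.9). In the inputs it held 6 of 70 reads, or 8.57% (3.99 to 17.5), and 3 of 31, or 9.68% (3.35 to 24.9). The 6 reads of input 1 came from a touching pair of peaks with 3 reads each. With each run of touching peaks counted once the gene's 70 reads were 48, so the input 1 interval may be too narrow. The interval of eCLIP replicate 2 did not meet those of the inputs. The intervals cover counting error only, since reads of a library are not independent molecules or cultures.

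**Figure D2:**
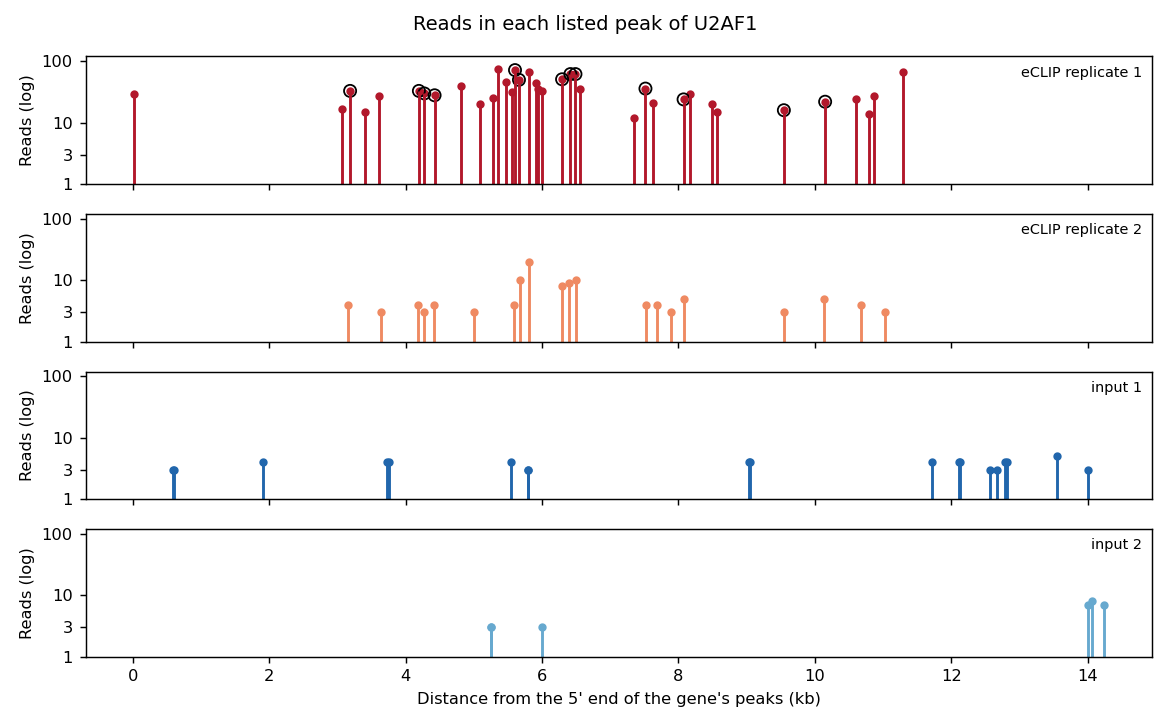
Reads in each listed U2AF1 peak (log axis from 1 read) against its distance from the 5′ end of the gene's peaks in kb, 1 panel per library. Black rings mark the 13 eCLIP replicate 1 peaks that were found in eCLIP replicate 2 and in neither input, and eCLIP peaks end near 11 kb while input peaks continue to 14.2 kb.

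U2AF1 also had the most sites found in both eCLIP libraries. A reproducible eCLIP-only peak is a peak of eCLIP replicate 1 that shares at least 1 base on the same strand with a peak of eCLIP replicate 2 and none with either input. U2AF1 held 13 of these, with 16 to 72 reads and a median of 33 in eCLIP replicate 1. The lowest p-value belonged to 44520825-44520865, with 62 reads (p = 2.21e-32 in the authors' list) in eCLIP replicate 1 and 10 reads (p = 2.54e-06) in replicate 2. The next were 44521701-44521761, with 72 and 4 reads, and 44520889-44520949, with 62 and 9. All 3 lay in the densest stretch. A further shared site, 44521486-44521553 in eCLIP replicate 2, was its strongest U2AF1 peak with 20 reads, and it met a peak of input 1. It was singled out after its value was seen.

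SF1, the protein that first holds the branch point, had its densest stretch of eCLIP replicate 1 reads at the 3′ end of its span. The gene (ENSG00000168066.16, chr11:64532201-64545996, minus strand) held 31 and 6 peaks in eCLIP and 14 and 2 in input. The eCLIP peaks held 567 and 29 reads (1.84 and 1.26 per 10000) and the input peaks 54 and 7 (2.17 and 0.686 per 10000). Read shares of the groups overlapped, with input 1 highest and input 2 lowest. The shares of peaks were 0.647 and 1.43 against 2.22 and 1.79 per 10000, so both eCLIP values were below both inputs. The log2 difference in peaks was -0.74 (SE 0.78; limma, adjusted p = 0.995). It turned to 0.19 by reads, to 0.98 at a p-value of at most 0.001 and to 0.32 in lists of equal length.

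The last 1000 bases of the SF1 span, at 64532201-64533200, were those with most reads in eCLIP replicate 1, with 239 of 567 (42.2%). The rest lay outside that stretch, and the median SF1 peak of that library lay at 39.3% of the span. In eCLIP replicate 2 the same stretch held 19 of 29 reads, or 65.5% (47.3 to 80.1). Input 1 had 9 of 54 there, or 16.7% (9.02 to 28.7), and input 2 had 0 of 7 (0 to 35.4). The input 1 peaks there include a touching pair. With each run of touching peaks counted once the gene's 54 reads were 42, so the input 1 interval may be too narrow. SF1 had 4 reproducible eCLIP-only peaks, and 3 of them lay in this stretch: 64532201-64532251 with 42 reads, 64532268-64532314 with 31 and 64532728-64532756 with 19. The first and second both met 1 eCLIP replicate 2 peak of 8 reads at 64532245-64532305. The strongest SF1 peaks of eCLIP replicate 1, 64532465-64532556 with 60 reads and 64532649-64532699 with 48, were singled out after their values were seen. They met input 1 peaks and no eCLIP replicate 2 peak.

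U2AF2, which binds the pyrimidine tract beside the 3′ splice site, also had eCLIP peaks at the 3′ end of its span, and input 2 held most of its reads there as well. The gene (ENSG00000063244.8, chr19:56165977-56186012, plus strand) held 33 and 6 peaks in eCLIP and 9 and 5 in input. The eCLIP peaks held 464 and 31 reads (1.51 and 1.35 per 10000) and the input peaks 34 and 42 (1.36 and 4.11 per 10000). The groups overlapped, with input 2 far above the other 3 libraries. The log2 difference in peaks was -1.03 (SE 0.80; limma, adjusted p = 0.995).

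U2AF2 held the only site of the 10 genes with overlapping peaks in all 4 libraries. The libraries listed there 56185607-56185667 with 34 reads and 56185598-56185655 with 12 in eCLIP, and 56185628-56185663 with 5 and 56185594-56185657 with 20 in input. That peak was the strongest of the gene in eCLIP replicate 2 and in both inputs, tied in input 1 at 5 reads. The stretch 56185607-56186606, the one with most reads in eCLIP replicate 1 (100 of 464), held 23 of 31 reads in eCLIP replicate 2 (74.2%) and 28 of 42 in input 2 (66.7%), against 5 of 34 in input 1 (14.7%). All 6 U2AF2 peaks of eCLIP replicate 2 overlapped a peak of eCLIP replicate 1, and 4 sites were reproducible and eCLIP-only. The lowest p-values among these were at 56185840-56185884 (20 and 4 reads), 56170083-56170118 (14 and 5) and 56185779-56185796 (11 and 3). At the 5′ end of its span, 56165978-56165993 in input 1 and 56165977-56165999 in input 2 overlapped, with 3 and 6 reads, and no eCLIP peak met them.

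**Figure D3:**
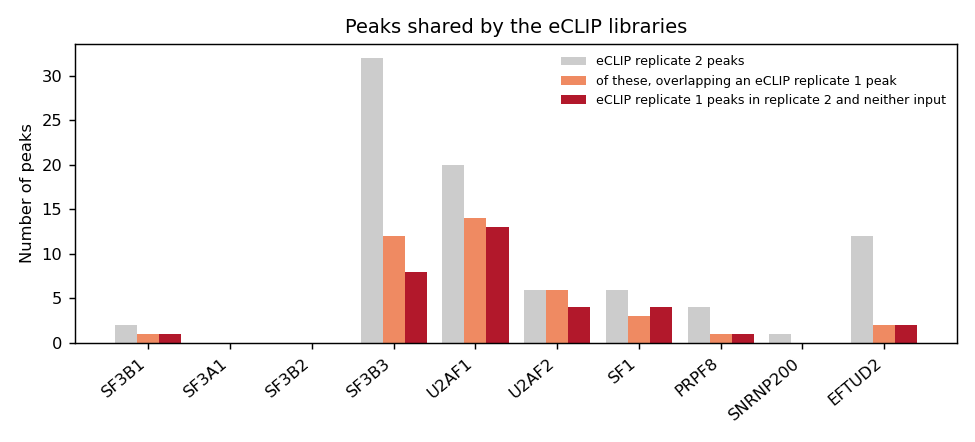
For each gene, the number of eCLIP replicate 2 peaks (grey), how many of these overlapped an eCLIP replicate 1 peak (orange), and the number of eCLIP replicate 1 peaks found in replicate 2 and in neither input (red). U2AF1 and SF3B3 hold 13 and 8 of the 33 red peaks, and SF3A1, SF3B2 and SNRNP200 hold 0.

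Among the U2 snRNP proteins, SF3B3 stood apart from SF3B1, SF3A1 and SF3B2 in the number of its peaks. SF3B3 is a scaffold subunit of SF3b, the part of the U2 snRNP that grips the branch point. The gene (ENSG00000189091.8, chr16:70557748-70608615, plus strand) held 105 and 32 peaks in eCLIP and 13 and 9 in input. The eCLIP peaks held 1110 and 225 reads (3.61 and 9.80 per 10000) and the input peaks 52 and 38 (2.09 and 3.72 per 10000). In eCLIP replicate 2 its read share was above those of the other libraries and at the 98.9th percentile of the genes tested. The share of eCLIP replicate 1 lay between the inputs. The log2 difference by reads was 0.98 (SE 0.79; limma, adjusted p = 0.94).

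By peaks SF3B3 took 2.19 and 7.64 per 10000 in eCLIP and 2.06 and 8.03 in input. The values paired by library number and not by group, and the log2 difference was 0.0012 (SE 0.90; limma, adjusted p = 1.0). It was -0.80 without eCLIP replicate 2 and 0.87 without input 2, so its sign rests on single libraries.

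SF3B3 had 8 reproducible eCLIP-only peaks, with a median of 12 reads in eCLIP replicate 1. The best by p-value were 70593812-70593849 (17 reads), 70579909-70579958 (18) and 70576424-70576521 (24), and each met a replicate 2 peak of 3 reads. These sites were thus well filled in one eCLIP library and at the list's minimum of 3 reads in the other. The strongest SF3B3 peaks of eCLIP replicate 2 were different ones, singled out after their values were seen. The first, 70565385-70565450, had 37 reads (p = 2.82e-37 in the authors' list), and it met an eCLIP replicate 1 peak of 10 reads and an input 2 peak of 8.

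Another 4 SF3B3 peaks of eCLIP replicate 2 with over 10 reads met no peak of any other library. They lay at 70574151-70574195 (23 reads), 70565017-70565055 (15), 70563944-70564023 (12) and 70577316-70577348 (11). The nearest peak of eCLIP replicate 1 was 106, 69, 175 and 131 bases away in that order, although that list was the longest. Of all 32 SF3B3 peaks of eCLIP replicate 2, 12 overlapped one of replicate 1.

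**Figure D4:**
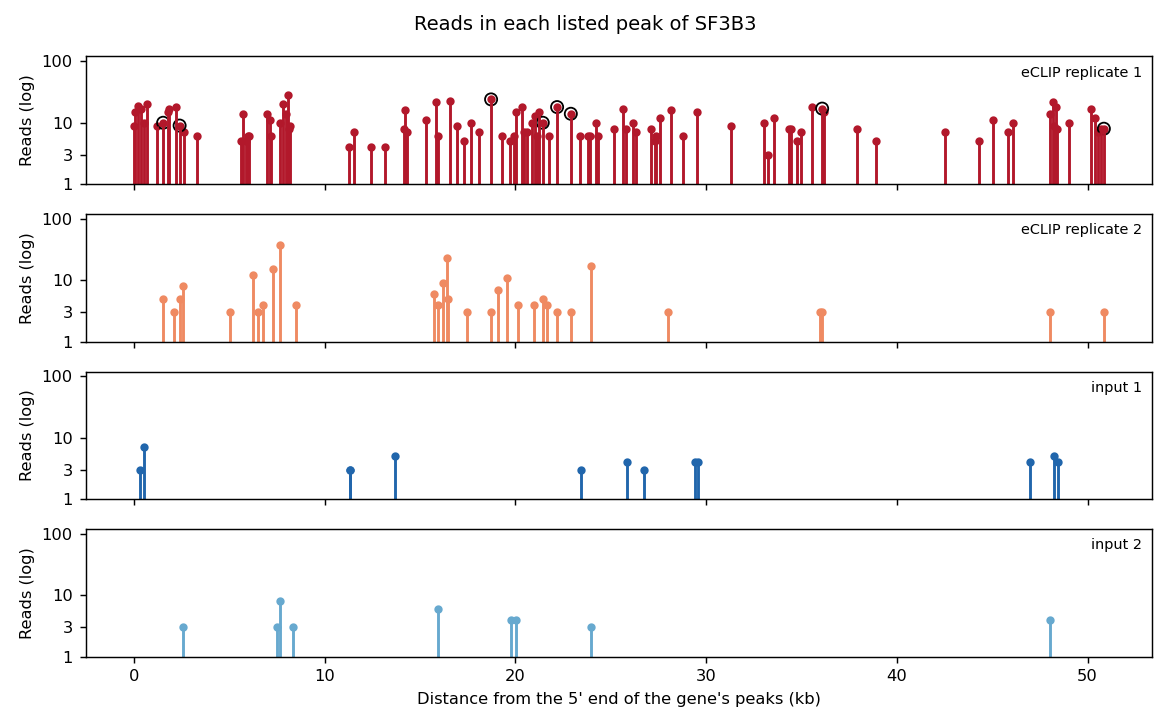
Reads in each listed SF3B3 peak (log axis from 1 read) against its distance from the 5′ end of the gene's peaks in kb, 1 panel per library. Black rings mark the 8 reproducible eCLIP-only peaks, and the highest bar of eCLIP replicate 2 (37 reads, at 7.67 kb) stands over peaks in eCLIP replicate 1 and input 2.

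The other U2 snRNP genes were thinly covered outside eCLIP replicate 1. SF3B1, the largest SF3b subunit, clamps the branch point helix. Its gene (ENSG00000115524.10, chr2:198256975-198299698, minus strand) held 28 and 2 peaks in eCLIP and 4 and 2 in input. Both eCLIP shares of peaks (0.584 and 0.477 per 10000) lay below both input shares (0.634 and 1.79), a log2 difference of -0.65 (SE 0.81; limma, adjusted p = 0.995). With touching peaks merged its eCLIP shares no longer lay below both inputs, at 0.567 and 0.486 against 0.431 and 1.83. The reads were 120 and 6 against 12 and 6, so every peak outside eCLIP replicate 1 rested on 3 reads. Its only shared site was 198292722-198292751, with 5 reads in eCLIP replicate 1 and 3 in replicate 2.

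SF3A1, a subunit of SF3a, which joins SF3b to the U2 snRNP, held 25 and 0 peaks in eCLIP and 2 and 1 in input. Its gene (ENSG00000099995.13) has its peaks at chr22:30728249-30748975, minus strand. The strongest SF3A1 peak of eCLIP replicate 1, 30733076-30733156 with 12 reads, met an input 1 peak. SF3B2, an SF3b subunit that contacts the RNA near the branch point, held 22 and 0 peaks in eCLIP and 3 and 0 in input. Its gene (ENSG00000087365.10) has its peaks at chr11:65820145-65836282, plus strand. The log2 differences were -0.58 (SE 0.77) for SF3A1 and -0.01 (SE 0.56) for SF3B2, and the latter turned to 0.024 with touching peaks merged. Neither gene is listed in eCLIP replicate 2, so the eCLIP libraries shared no site in them.

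PRPF8, the large U5 protein at the heart of the catalytic centre, had the lowest eCLIP share of the 10 relative to input. The gene (ENSG00000174231.12, chr17:1553960-1587844, minus strand) held 51 and 4 peaks in eCLIP and 33 and 5 in input. Those were 1.06 and 0.955 per 10000 peaks against 5.23 and 4.46, with no overlap of the groups. The eCLIP peaks held 307 and 17 reads (0.998 and 0.740 per 10000) and the input peaks 111 and 16 (4.45 and 1.57 per 10000), also without overlap. The log2 difference by peaks was -1.82 (SE 0.77), with an unadjusted p of 0.028 and an adjusted p of 0.995 in limma.

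On the minus strand many input 1 peaks are listed as touching pairs, which raises the count for PRPF8. With touching peaks merged, its 33 input 1 peaks formed 18 and its share there was 3.88 per 10000, against 1.05 and 0.971 in eCLIP and 3.66 in input 2. The groups still did not overlap, and the log2 difference was -1.50. Among peaks with a p-value of at most 0.001 it was 0.44: input 1 kept 3 PRPF8 peaks, input 2 kept 0 and the eCLIP lists kept 22 and 1. At that limit the whole lists held 111520 and 9166 peaks in eCLIP and 7927 and 3216 in input. The PRPF8 share of input 1 thus still lay above both eCLIP shares, and only that of input 2, at 0, lay below. The change of sign rests on input 2 (SE 1.29), and whether the lower eCLIP share depends on weaker peaks was not tested. Its single reproducible eCLIP-only site was 1574817-1574841, with 5 and 3 reads.

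SNRNP200, the U5 helicase, held 27 and 1 peaks in eCLIP and 6 and 1 in input. Its gene (ENSG00000144028.10) has its peaks at chr2:96940569-96971270, minus strand. Both eCLIP shares of peaks (0.563 and 0.239 per 10000) lay below both inputs (0.951 and 0.893), a log2 difference of -0.68 (SE 0.81; limma, adjusted p = 0.995). By reads the groups overlapped, at 0.361 and 0.131 against 0.802 and 0.294 per 10000. With touching peaks counted once they did not, at 0.358 and 0.139 against 0.527 and 0.394. The eCLIP libraries shared no site in it.

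EFTUD2, the U5 GTPase, held 59 and 12 peaks in eCLIP and 14 and 3 in input. Its gene (ENSG00000108883.8) has its peaks at chr17:42927339-42976775, minus strand. Its shares were 1.23 and 2.86 per 10000 peaks in eCLIP against 2.22 and 2.68, and 1.13 and 1.83 per 10000 reads against 1.85 and 1.37. The groups overlapped on both scales, and the log2 difference by peaks was -0.28 (SE 0.78; limma, adjusted p = 0.995). It turned to 0.19 without eCLIP replicate 1. The 2 sites shared by the eCLIP libraries, 42969877-42969902 (7 and 4 reads) and 42944444-42944477 (4 and 3 reads), met no input peak. The other 10 EFTUD2 peaks of eCLIP replicate 2 met none of replicate 1.

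Peak density per length of the span set the same genes at the top in both eCLIP libraries. In eCLIP replicate 1, U2AF1 held 25.9 peaks per 10 kb, SF1 22.5, SF3B3 20.6 and U2AF2 16.5, against a median of 8.54 over all genes tested. SF3B1, with 6.55, had the lowest density and the only one of the 10 below that median. In eCLIP replicate 2, U2AF1 held 14.0 per 10 kb, SF3B3 6.29, SF1 4.35 and U2AF2 2.99, with a median of 0.371 over all genes. The inputs also listed U2AF1 most densely, at 13.3 and 4.21 per 10 kb. The order of the others differed between libraries. In input 2, U2AF2 (2.50) and SF3B3 (1.77) came next, then PRPF8 (1.48) and SF1 (1.45). In input 1, SF1 (10.1) and PRPF8 (9.74) came next, and SF3B3 (2.56) lay below EFTUD2 (2.83). These input 1 densities count touching pairs as separate peaks. With touching peaks merged PRPF8 fell from 33 to 18 peaks there. EFTUD2 then held 8 over 49.4 kb and SF3B3 12 over 50.9 kb, so the order of EFTUD2 and SF3B3 reversed. From density alone, ZFR contact and abundance of the transcript cannot be told apart.

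Pooled over the 10 genes, more peaks of eCLIP replicate 1 were strong than in the whole list, but not in every gene. In that library 50.5% of the members' peaks had a p-value of at most 0.001, beside 23.3% of all peaks. The shares were 22.9% beside 21.9% in eCLIP replicate 2, 10.3% beside 12.6% in input 1 and 26.5% beside 28.7% in input 2. Pooled, the members thus stood above the list in eCLIP replicate 1 alone, and their values in the other 3 libraries lay near it. Of the 211 members' peaks that passed there, U2AF1 gave 37 and SF3B3 gave 66. The share was below that of the whole list in 4 members, with 2 of 28 peaks in SF3B1, 2 of 22 in SF3B2, 5 of 25 in SF3A1 and 6 of 27 in SNRNP200.

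The eCLIP lists met at 39 of the members' 83 peaks of eCLIP replicate 2, where 33.1% of all its peaks met one of replicate 1. By gene, 14 of 20 did in U2AF1, 6 of 6 in U2AF2, 3 of 6 in SF1, 12 of 32 in SF3B3 and 1 of 2 in SF3B1, all above the share of the whole list. The U5 genes lay below it, with 2 of 12 in EFTUD2, 1 of 4 in PRPF8 and 0 of 1 in SNRNP200. The differences were not tested, and several rest on a handful of peaks. Reproducible eCLIP-only peaks made up 33 of the members' 418 peaks in eCLIP replicate 1, beside 2.52% of all peaks in that list. At least 1 such peak was present in 7 of 10 members, beside 39.9% of all genes tested, and at least 5 in 2 of 10 (U2AF1 and SF3B3), beside 7.52%. The number over the members was 8 at a p-value of at most 0.001 and 7 in lists of equal length. The share over all peaks is not given at these settings, so the members cannot be set against the whole list there. A long or densely covered gene has more chances of such a peak, and the members were not compared with genes of like coverage.

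Same-numbered libraries were compared by Fisher's exact test on the share of peaks, which compares a pair of libraries, not the conditions. For number 1 it called 0 of 10 members higher in eCLIP, beside 1.87% of all genes, and 3 lower, beside 4.68%. The 3 were PRPF8 (adjusted p = 4.66e-08 by Fisher's exact test), U2AF1 (0.000899) and SF1 (0.0120). The test counts each peak of a touching pair in input 1 separately. With touching peaks merged the same 3 were called, but the lowest adjusted p was 0.00285 by Fisher's exact test. For number 2 it called 0 higher, beside 0.0449%, and 0 lower, beside 0.0673%. For U2AF1 the call depended on which peaks were kept. In lists cut to the 11204 peaks with the lowest p-values it was higher in eCLIP replicate 1 than in input 1 (adjusted p = 3.13e-05, Fisher's exact test). That is the reverse of the full lists, and the cut changes list length and peak strength together. Among peaks with a p-value of at most 0.001 no member was called.

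Peak positions along the gene could be compared in the 5 members with at least 3 peaks in every library. In U2AF1, PRPF8 and EFTUD2 the median peak lay nearer the 5′ end in both eCLIP libraries than in both inputs. The medians for U2AF1 were 41.7% and 44.5% of the span in eCLIP and 63.5% and 70.1% in input. For PRPF8 they were 29.6% and 37.2% against 66.7% and 76.5%. For EFTUD2 they were 44.4% and 48.8% against 74.3% and 57.5%. In each of these 3 genes the eCLIP medians lay before the midpoint of the span and the input medians beyond it.

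In SF3B3 (41.4% and 33.4% against 50.8% and 31.4%) and U2AF2 (36.6% and 98.5% against 39.4% and 79.2%) the groups overlapped. The order with eCLIP nearer the 5′ end was seen in 3 of 5 members, beside 25.4% of the 752 genes that met the same minimum. The opposite order was seen in 0 of 5, beside 13.8%. The number of peaks behind a median was as low as 3 (EFTUD2, input 2) and 4 (PRPF8, eCLIP replicate 2). Pooled over all 10 genes, the last 10% of the span held 12.7% (9.83 to 16.2) and 12.0% (6.68 to 20.8) of eCLIP peaks and 13.7% (8.60 to 21.1) and 23.5% (12.4 to 39.996) of input peaks. Those intervals overlap, but no test was made of a difference in that part. They treat peaks pooled over genes as independent, so they may be too narrow. Without SF3B3 the shares were 12.8% and 15.7% in eCLIP and 12.5% and 28.0% in input. Input 1 then lay below both eCLIP libraries, so the pooled order depends on SF3B3. Over all genes tested the last 10% of the span held 10.2% and 9.13% of eCLIP peaks and 14.5% and 16.3% of input peaks.

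**Figure D5:**
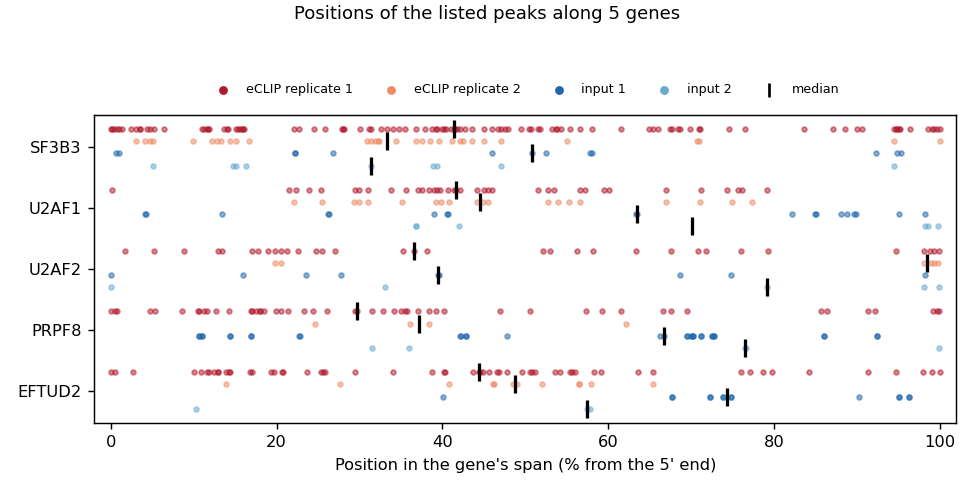
Position of every listed peak along the span of 5 genes (percent of the span from the 5′ end), 1 row of dots per library, with a black bar at the median. In U2AF1, PRPF8 and EFTUD2 both eCLIP medians lie to the left of both input medians, and in SF3B3 and U2AF2 they do not.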

How the data were processed

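The authors deposited 1 peak list per library. The tools were cutadapt, STAR and SAMtools and the build hg19, per the submitters' processing notes. Their versions, the peak caller and the annotation are not stated in these sources. Each deposited peak carries a p-value between 0 and 0.05 and a score, which the authors' values show to be the whole part of 10 times its negative log10, capped at 1000. The number ending a deposited peak name, at least 3, was read as its reads.

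The peaks of each gene were put on the scale log2(share per 10000 + 0.5) and tested two-sided with limma 3.58.1 (trended eBayes; R 4.3.3) over all 4 libraries and the 8914 genes with at least 10 peaks. This scale understates changes of genes with few peaks. Fisher's exact test (SciPy 1.17.1) compared same-numbered libraries. Both used Benjamini-Hochberg adjustment over all genes tested, at 0.05. The fit was also run on simulated counts, which held no spread between libraries of a group beyond counting error. That run cannot show how the fit performs on libraries that differ as widely as these.

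All 10 members passed the filter, mostly through eCLIP replicate 1. Members, lists and tests were chosen with earlier results of these data known. The text names all 10 members and, of each, up to 3 reproducible eCLIP-only peaks by p-value in eCLIP replicate 1 and the peaks found in all 4 libraries; other peaks are said to be singled out. Median positions, windows of 1000 bases and densities were added after the data were seen. The 23 further U2 and U5 genes listed were not analysed here, because no table paired their symbols with the identifiers, and no hg19 sequence was used.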

Additional observations from a re-analysis of the deposited data

How the results depend on the processing

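No member was called by limma under any of the 13 alternatives. Same-numbered libraries deviated together (r = 0.40 across 8914 genes, which are not independent replicates), but the labels tie the numbers to nothing shared. With the replicate number as a block, limma called 3 genes higher and 1 lower over all genes and no member; PRPF8 came to an adjusted p of 0.19. Leaving out 1 library gave 0 to 695 genes higher and 0 to 5 lower. Members with both eCLIP shares above both inputs were 0, but 1 by share of reads, also with touching peaks counted once (chosen after seeing the data), and 0 to 1 with a library left out. Those below both were 4, but 3 by reads with touching peaks counted once, 2 by reads as listed, at a p-value of at most 0.001 and in lists of equal length, and 5 to 8 with a library left out. Shares over all genes are given only for the full lists by peaks and by reads. With a library left out such an order is easier to meet. Reproducible eCLIP-only peaks numbered 33, but 8 at a p-value of at most 0.001 and 7 in lists of equal length. Without an input they were 34 to 38. Shares over all peaks are not given for these alternatives. Fisher's exact test for number 1 called 3 members, 0 at 0.001 and 1 in lists of equal length. The last-tenth share, eCLIP minus input, was -6.24 percentage points, -12.3 at 0.001, and -11.2 to -1.31 with a library left out. At 0.001 it was 15.2% and 15.8% in eCLIP, 0% of 12 peaks in input 1 and 55.6% of 9 in input 2. Input 1 thus lay below both eCLIP libraries there, and the -12.3 rests on input 2. The log2 differences that changed sign, all uncalled, were SF3B2 with touching peaks merged (0.024); SF3B3 merged (-0.14) and with a pseudocount of 2 (-0.0065); U2AF1 by reads (0.56), at 0.001 (1.10) and at equal length (1.87); SF1 by reads (0.19), at 0.001 (0.98) and at equal length (0.32); and PRPF8 at 0.001 (0.44). With a library left out SF3B2 ranged from -0.49 to 0.47, SF3B3 from -0.87 to 0.87, U2AF1 from -1.83 to 0.22 and EFTUD2 from -0.76 to 0.19. The causes were not tested. At 0.001, 6 members passed the filter, and 4 did in lists of equal length. Depth is unknown, and many values rest on peaks of 3 reads.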
